A study of Rattus norvegicus with 24 samples.

Results

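White and brown adipocyte transcripts were followed in the kidneys of hypertensive rats on a diet rich in salt and fat. The set held 9 genes. Of these, 6 were grouped as white adipocyte genes (Fabp4, Cfd, Car3, Lipe, Plin4 and Lpl) and 3 as brown adipocyte genes (Ucp1, Cidea and Adrb3). The group names do not assign a transcript to 1 kind of cell. The genes were taken as every probe set that the array annotation assigns to 1 of these symbols. That gave 10 of 15923 probe sets, with 2 for Car3 and 1 for each other gene. The animals were male SHR-SP rats, a stroke-prone line with inherited hypertension, and all entered the study at 11 weeks of age. The salt and fat group received chow with 24.5% fat and drank water with 1% NaCl, and the normal diet group received powdered chow and water. Salt and fat were always given together, so their separate effects cannot be told apart. The organs were taken after 2 or 8 weeks from 4 groups of 6 animals, each animal with its own array: salt and fat at 2 weeks, normal diet at 2 weeks, salt and fat at 8 weeks, and normal diet at 8 weeks. RNA came from pulverised whole kidney, and the labels do not say whether fat of the sinus or capsule was trimmed off.

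White adipocytes store triglyceride in a single large droplet and release fatty acids by lipolysis, whereas brown adipocytes hold many small droplets and dense mitochondria and burn fatty acids to make heat. In brown fat, noradrenaline acts on beta-3 adrenergic receptors, lipolysis supplies fatty acids, and these open uncoupling protein 1 in the inner mitochondrial membrane. Fat depots around the rat kidney, including that at the hilum, are known to hold both kinds of cell.

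Signals are the deposited MAS5 intensities, 1 value for each probe set and array. Differences are of log2(signal + 7.2) ± SE, salt and fat minus normal diet, from a limma fit across 10208 probe sets on all 24 arrays. Calls are at p under 0.05 after Benjamini-Hochberg adjustment across that whole table, and all adjusted p values below are from that limma fit. The pseudocount makes the scale understate differences of weak probe sets. Signals of different probe sets are not comparable with each other, and precision is limited by having 6 arrays in a group. Median array signals lay between 68.7 and 78.7, and log2 signals within a group correlated at 0.958 to 0.981. Normal-diet arrays 1 and 2 at 8 weeks stood apart in their 1st percentile, at 2.4 to 3.0 against 0.7 to 1.2 on the other 22 arrays. Kidney identity was clear: 10 of 11 kidney markers on the array passed the filter, and Umod, which encodes uromodulin of the thick ascending limb, had signals of 4737 to 6782.

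Adipocyte identity was weaker. A probe set was tested if its signal exceeded the 40th percentile of the array, 44.48 to 54.5, on at least 6 arrays. All 10 member probe sets passed, but some only on a minority of arrays: Ucp1 on 8 of 24, Plin4 on 10, Lipe on 12 and Cfd on 13. Lpl passed on all 24 and Cidea on 23. Ucp1 passed on 5 salt and fat arrays at 8 weeks, 1 salt and fat array at 2 weeks, 2 normal-diet arrays at 2 weeks and 0 normal-diet arrays at 8 weeks. Without the salt and fat arrays at 8 weeks, where it was high, it would not have reached the 6 arrays needed for a test. Of the defining adipocyte transcripts outside the set, Lep, which encodes leptin, stayed between 1.7 and 15.4 on every array, and Plin1, the main droplet coat of adipocytes, passed on 3 arrays. Adipoq was not analysed here.

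**Figure D1:**
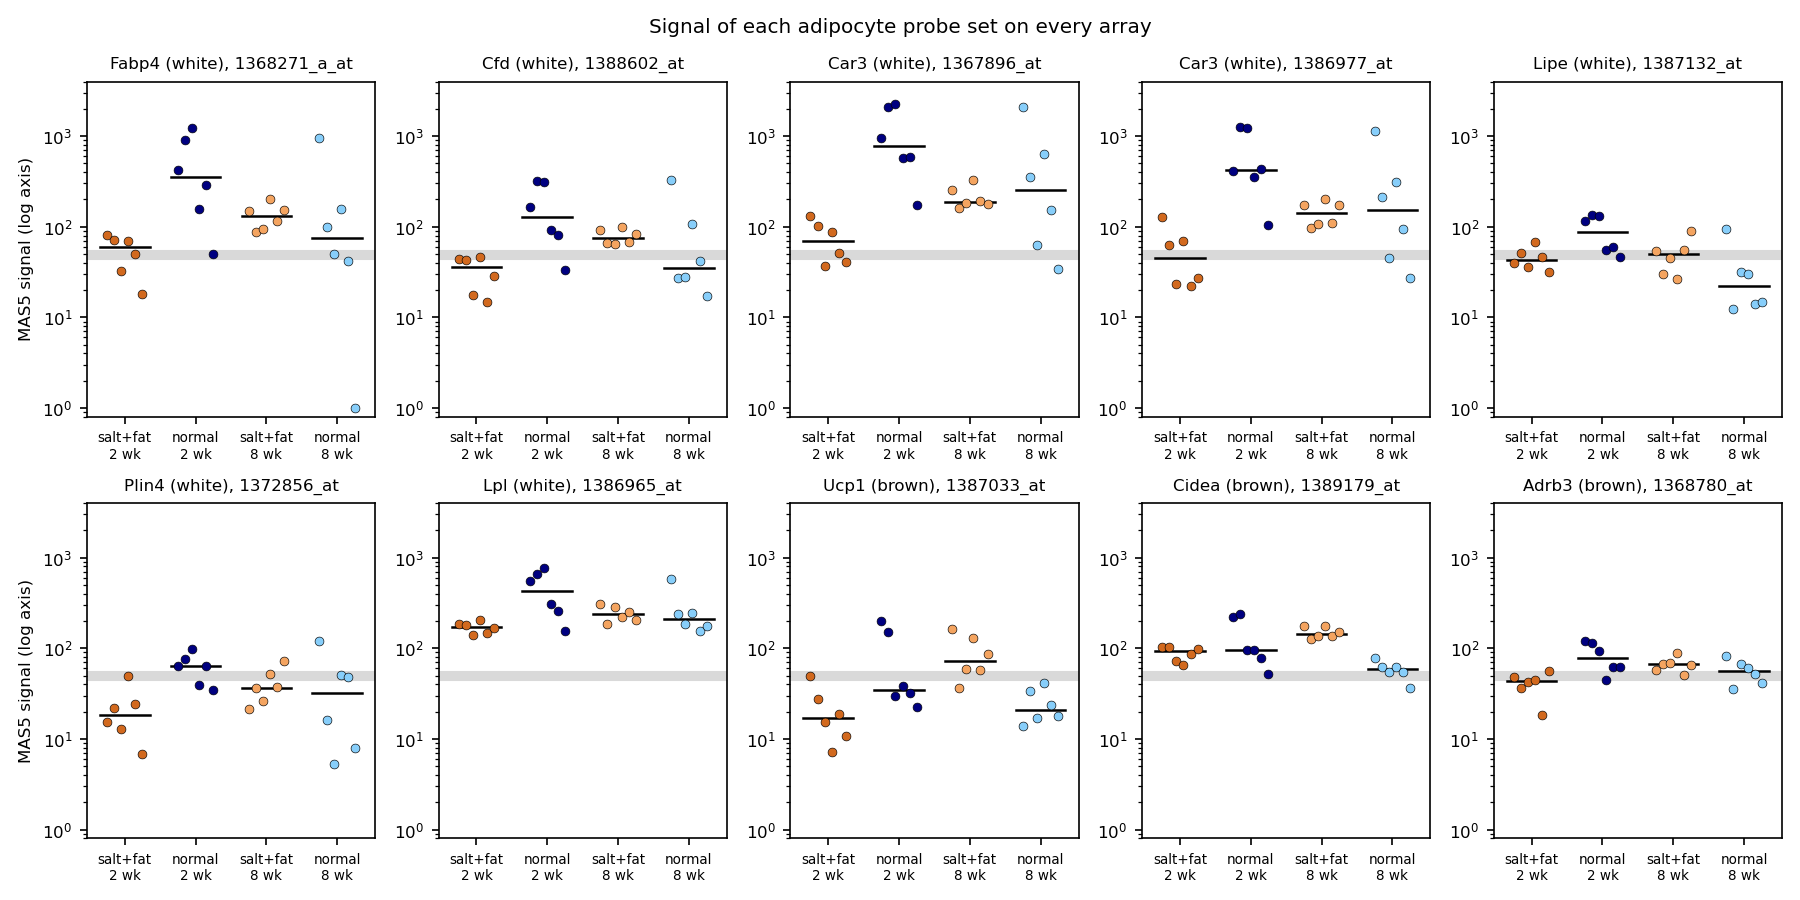
MAS5 signal (log axis) of each adipocyte probe set on every array, with 6 points per group in replicate order, a bar at the group median and a grey band at the filter level of 44.48 to 54.5. White genes are high on normal-diet arrays at 2 weeks and scatter widely on normal-diet arrays at 8 weeks, and Ucp1 and Cidea are high on salt and fat arrays at 8 weeks.

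After 2 weeks, 5 of the 6 white genes were lower on the salt and fat diet. They were the carbonic anhydrase Car3, the fatty acid carrier Fabp4, the secreted protease Cfd, the droplet coat Plin4 and the lipase Lpl. The 6 called white probe sets were 6 of 7, where 4.19% of all tested probe sets were called lower and 8.74% in either direction. Among the brown genes only Adrb3 was called, lower as well. All 10 member probe sets had values below 0, with a median of -1.31 beside 0.0165 over all tested probe sets. In RNA from whole kidney, fewer adipocytes, less RNA per adipocyte and uneven trimming of fat cannot be told apart. Nor can a change in other cells that make some of these transcripts.

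Car3, a cytosolic carbonic anhydrase that is abundant in adipocytes and also present in liver and slow muscle, had the largest difference of the set. Its lowest, median and highest signals were 37.0, 68.8 and 129.7 on the salt and fat diet, against 174.7, 767.7 and 2232.4 on the normal diet. The groups did not overlap, as was the case in this direction for 2.17% of all tested probe sets. The difference was -3.44 ± 0.65 (95% interval -4.77 to -2.11, adjusted p = 0.00116). The other Car3 probe set gave -3.17 ± 0.61 (adjusted p = 0.00139), with 5 of 6 salt and fat arrays below every normal-diet array.

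Fabp4 encodes the fatty acid carrier of adipocyte cytosol, which macrophages and capillary endothelium also make. Its signals were 18.1, 59.9 and 80.4 (lowest, median, highest) on the salt and fat diet, against 50.2, 354.1 and 1236.0 on the normal diet. Only normal-diet array 6, at 50.2, reached into the salt and fat range, and the difference was -2.58 ± 0.72 (adjusted p = 0.0242). The call was lost without normal-diet array 2 or 3 or salt and fat array 3 (adjusted p up to 0.0692).

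Cfd encodes adipsin, complement factor D, a serine protease that adipocytes secrete. It had 14.8, 35.6 and 46.6 on the salt and fat diet, against 33.4, 128.7 and 316.9 on the normal diet. Again only normal-diet array 6 fell inside the salt and fat range. The difference was -1.87 ± 0.48 (adjusted p = 0.0149).

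The genes of triglyceride hydrolysis and storage had smaller differences. Lpl, lipoprotein lipase, which frees fatty acids from circulating lipoproteins at the capillary wall, had 141.3, 172.9 and 204.0 on the salt and fat diet, against 156.5, 431.2 and 775.2 on the normal diet (-1.17 ± 0.29, adjusted p = 0.0109). Plin4, a coat protein of small and nascent lipid droplets, had 6.8, 18.6 and 49.1 on the salt and fat diet, against 34.4, 63.6 and 97.3 on the normal diet (-1.33 ± 0.42, adjusted p = 0.0465). The Plin4 call was close to the threshold and was lost in 13 of 24 fits that left out 1 array. Lipe, hormone-sensitive lipase, which splits stored diglyceride, had 31.6, 42.8 and 67.4 on the salt and fat diet, against 46.4, 87.6 and 135.5 on the normal diet, and did not pass the test (-0.82 ± 0.33, adjusted p = 0.127). It was called when only the groups compared were fitted (adjusted p = 0.0494).

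The brown genes at 2 weeks did not share 1 pattern. Adrb3, the beta-3 adrenergic receptor, which in rodents sits on white as well as brown adipocytes, had 18.5, 44.0 and 56.5 on the salt and fat diet, against 44.5, 77.8 and 120.4 on the normal diet. All 6 salt and fat arrays lay below the normal-diet median, and the difference was -0.87 ± 0.22 (adjusted p = 0.0137). Ucp1, the uncoupling protein that lets brown fat make heat, had 7.2, 17.2 and 48.8 on the salt and fat diet, against 22.2, 35.1 and 197.6 on the normal diet. It missed the threshold (-1.29 ± 0.42, adjusted p = 0.0533), but was called with the replicate number as a block (adjusted p = 0.0362) and in 6 of 24 fits that left out 1 array (adjusted p 0.0278 to 0.156 over all 24). Cidea, a droplet protein that promotes lipid transfer between droplets and marks brown fat in rodents, had 65.9, 92.9 and 103.6 on the salt and fat diet, against 52.2, 94.9 and 236.6 on the normal diet. Every salt and fat array lay inside the normal-diet range of Cidea. Normal-diet arrays 1 (219.6) and 2 (236.6), the 2 of high Ucp1, lay above every salt and fat array, and array 6 (52.2) lay below. The interval of the Cidea difference ran from -0.82 to 0.15 (-0.34 ± 0.24, adjusted p = 0.418).

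Some technical measures differed between the same groups at 2 weeks. The 3' to 5' ratio of the GAPDH control probe sets was 1.22 ± 0.09 with salt and fat and 1.09 ± 0.07 on the normal diet (SD, n = 6 each). The centred log2 level of 18 spike-in probe sets was -0.433 to 0.068 on the salt and fat diet, against 0.083 to 0.235 on the normal diet. The liver transcript Alb was lower as well (-1.66 ± 0.41, adjusted p = 0.0116), with 1 of 4 tested liver markers called, beside 8.74% of all tested probe sets. The summed signal of 12 liver markers was 237 to 379 on the salt and fat diet, against 310 to 399 on the normal diet, and none of them was at 0 on any array. At 8 weeks the spike-in level was 0.007 to 0.188 with salt and fat (mean 0.099). On the normal diet at 8 weeks it was -0.443 to 0.26 (mean -0.13). Its means at 2 weeks were -0.134 with salt and fat and 0.165 on the normal diet, so its diet difference changed sign with time. The GAPDH ratio at 8 weeks was 1.16 in both groups. The part of these measures in the adipocyte differences, by diet or by time, was not tested.

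After 8 weeks Ucp1 and Cidea were higher on the salt and fat diet, and none of the 7 white probe sets was called in either direction by limma. For the white genes Fabp4, Cfd and Lipe, all 6 salt and fat arrays also lay above the normal-diet median. The white intervals were wide, and that of Fabp4 (-0.82 to 2.14) held the Ucp1 value of 1.50. White and brown genes were not tested against each other. The 2 called brown probe sets were 2 of 3, where 5.63% of all tested probe sets were called higher and 9.14% in either direction. Of the 7 white probe sets, 1, that of Lipe, had an unadjusted p under 0.05, as did 23.7% of all tested probe sets. Adrb3 was not called (0.23 ± 0.22, interval -0.22 to 0.69, adjusted p = 0.571), with 50.5, 66.3 and 89.2 on the salt and fat diet, against 35.8, 56.4 and 81.9 on the normal diet.

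Cidea had signals of 125.3, 143.5 and 174.3 (lowest, median, highest) on the salt and fat diet, against 36.3, 58.7 and 78.0 on the normal diet. The groups were fully separate, which held in this direction for 2.21% of all tested probe sets. The difference was 1.28 ± 0.24 (interval 0.79 to 1.77, adjusted p = 0.000805), and it was called in all 24 fits that left out 1 array. Ucp1 had 36.3, 72.9 and 162.2 on the salt and fat diet, against 13.7, 20.8 and 41.4 on the normal diet. On 5 of 6 salt and fat arrays it exceeded every normal-diet array, and array 2 at 36.3 was the exception. The difference was 1.50 ± 0.42 (adjusted p = 0.023). Ucp1 entered the tested set only through the salt and fat arrays at 8 weeks. This call, its interaction and its change with time on that diet all use that group, so they depend on that choice. In the fit without the filter these calls stayed. The Ucp1 call was lost without salt and fat array 1 or 4 or without normal-diet array 1 (adjusted p up to 0.0751), and without normal-diet arrays 1 and 2 together (1.48, adjusted p = 0.0684).

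The promoters of the genes that were called at 8 weeks are shown beside that of Cfd, the white gene whose promoter could be matched and whose call at 2 weeks was well past the threshold. Of the 9 genes, 4 (Cfd, Plin4, Ucp1 and Cidea) matched the RefSeq promoter table of assembly GRCr8, which gives 250 bases before to 50 after each start. Capitals mark letters found by search on both strands.
Ucp1, chr19:41721372-41721671, minus strand: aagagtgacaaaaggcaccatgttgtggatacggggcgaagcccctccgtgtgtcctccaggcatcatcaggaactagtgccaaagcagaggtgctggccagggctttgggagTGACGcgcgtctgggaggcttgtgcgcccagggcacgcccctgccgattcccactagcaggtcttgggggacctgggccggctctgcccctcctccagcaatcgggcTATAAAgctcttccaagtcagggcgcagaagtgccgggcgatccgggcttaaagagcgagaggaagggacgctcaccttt
Cidea, chr18:63164567-63164866, plus strand: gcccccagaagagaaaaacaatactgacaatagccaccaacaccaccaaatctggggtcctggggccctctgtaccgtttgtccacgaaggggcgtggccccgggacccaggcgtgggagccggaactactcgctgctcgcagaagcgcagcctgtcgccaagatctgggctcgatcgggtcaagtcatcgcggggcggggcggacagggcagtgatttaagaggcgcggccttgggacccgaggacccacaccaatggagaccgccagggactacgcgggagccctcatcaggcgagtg
Cfd, chr7:10465447-10465746, minus strand: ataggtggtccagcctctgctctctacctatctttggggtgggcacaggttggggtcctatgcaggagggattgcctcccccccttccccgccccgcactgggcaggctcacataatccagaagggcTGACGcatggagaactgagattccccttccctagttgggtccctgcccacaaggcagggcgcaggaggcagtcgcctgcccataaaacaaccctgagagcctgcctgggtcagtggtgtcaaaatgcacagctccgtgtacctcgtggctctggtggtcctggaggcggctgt
The capitals are TGACG, the half-site of cyclic AMP response elements, found 137 bases before the start of Ucp1 and 123 bases before that of Cfd, and TATAAA, a core promoter box, found 30 bases before the start of Ucp1. Among 27457 promoters of the table, 22.0% held TGACG on either strand and 14.3% held TATAAA. The nuclear receptor half-site AGGTCA (15.7% of promoters), the direct repeat DR1 of PPAR receptors, which joins a pair of these half-sites with 1 base between (0.0583%) and the C/EBP letters TTGCNNAA (10.5%) were in none of these 3 windows, nor in that of Plin4. The AGGTCA search overlaps that for the direct repeat, which contains it. These matches describe the letters only, and the enhancers known to control Ucp1 lie farther upstream.

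The white genes scattered widely on the normal diet at 8 weeks and were not called. Fabp4 had 87.7, 132.0 and 201.4 on the salt and fat diet, against 1.0, 74.8 and 952.6 on the normal diet (0.66 ± 0.72, interval -0.82 to 2.14, adjusted p = 0.628). Car3 had 160.9, 189.6 and 325.3 on the salt and fat diet, against 34.0, 251.8 and 2089.9 on the normal diet (-0.18 ± 0.65, adjusted p = 0.904). In both genes every salt and fat array lay inside the normal-diet range. Cfd had 65.1, 75.9 and 99.0 on the salt and fat diet, against 17.3, 34.8 and 329.3 on the normal diet (0.46 ± 0.48, adjusted p = 0.61), and Lpl differed by 0.02 ± 0.29 (interval -0.57 to 0.61). Lipe had 26.3, 50.1 and 90.3 on the salt and fat diet, against 12.3, 22.3 and 93.8 on the normal diet (0.71 ± 0.33, adjusted p = 0.188), and Plin4 differed by 0.37 ± 0.42 (adjusted p = 0.644). Normal-diet array 1 was the highest of its group for all 6 white genes. Without it Lipe was called higher (1.03, adjusted p = 0.0276), and the 2 Car3 probe sets moved to 0.43 and 0.47, uncalled.

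**Figure D2:**
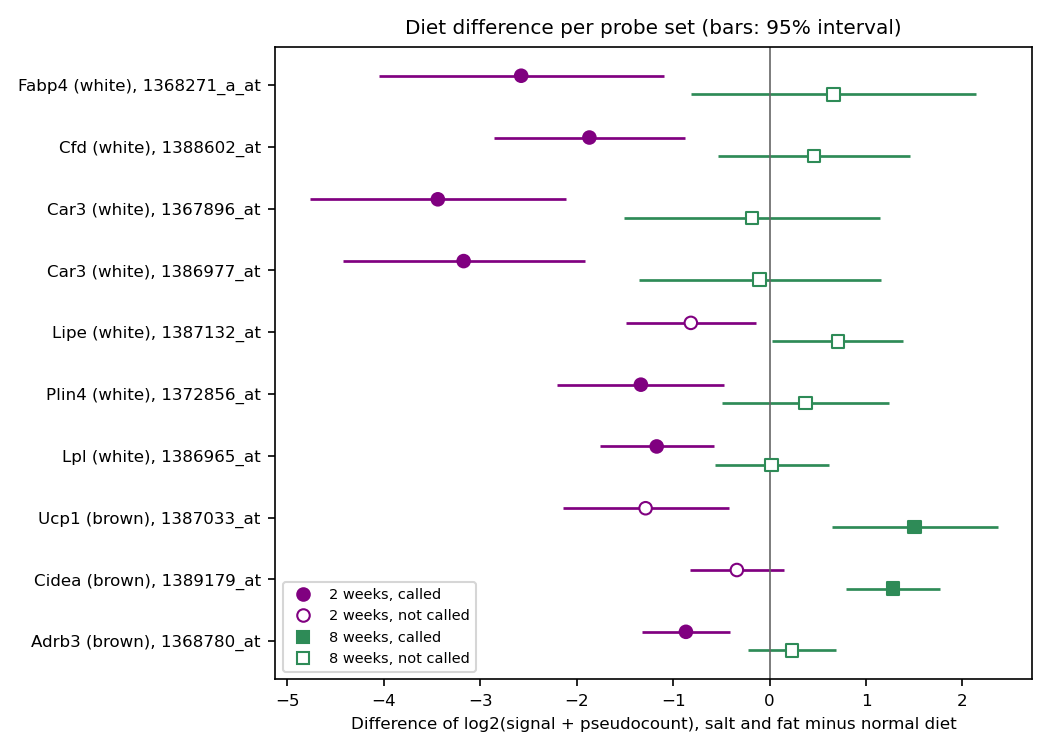
Difference of log2(signal + 7.2), salt and fat minus normal diet, for each adipocyte probe set at 2 weeks (circles) and 8 weeks (squares), with bars for the 95% interval and filled symbols where the adjusted p is under 0.05. At 2 weeks all 10 values lie below 0 and 7 are called; at 8 weeks only Ucp1 (1.50) and Cidea (1.28) are called, above 0.

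Some macrophage transcripts were higher at 8 weeks. Of 8 tested macrophage markers, 4 were called higher on the salt and fat diet and none lower, beside 5.63% called higher over all tested probe sets, among them Gpnmb (1.21 ± 0.17, adjusted p = 2.91e-05) and C1qa (0.57 ± 0.09, adjusted p = 7.03e-05). The summed signal of 10 macrophage markers was 3054 to 3960 on the salt and fat diet, against 2382 to 2999 on the normal diet, and none was at 0. Of 4 tested liver markers 1 was called, Fga, a fibrinogen chain made mainly by liver (1.58 ± 0.26, adjusted p = 0.000231). The other 3 had values below 0 and were not called (Ttr -0.48, Apob -0.21, Alb -0.19). Fga passed the filter on 7 arrays, with a median of 80.8 on the salt and fat diet at 8 weeks and 27.35 to 39.6 in the other groups. The part of macrophages and other cells in the Ucp1 and Cidea differences was not tested. Of 12 skeletal muscle markers 2 were tested, and of 9 adrenal and nerve markers on the array 1 was tested, with 0 calls by limma at either time. At unadjusted p under 0.05 there was 1 muscle marker at 2 weeks and 1 at 8 weeks, both lower on the salt and fat diet, and no adrenal or nerve marker. Such a p was held by 23.7% of all tested probe sets at 8 weeks. In the fit without the filter, the catecholamine enzyme gene Th was called lower at 8 weeks (-0.64 ± 0.19, adjusted p = 0.0479) and the fibrinogen chain Fgg higher (1.13 ± 0.26, adjusted p = 0.0103). Of 10 endothelial markers 1 was higher at 2 weeks (Emcn, 0.22 ± 0.07) and 1 lower at 8 weeks (Kdr, -0.40 ± 0.11). Calls in either direction covered 8.74% of all tested probe sets at 2 weeks and 9.14% at 8 weeks.

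The change of the diet difference with time was tested directly as an interaction, the difference at 8 weeks minus that at 2 weeks. It was called for Ucp1 (2.79 ± 0.59, adjusted p = 0.0247) and for Cidea (1.62 ± 0.33, adjusted p = 0.0219), where 0.382% of all tested probe sets were called and 0.343% were called above 0. For Adrb3 it was 1.10 ± 0.31 (adjusted p = 0.148). The white genes had values from 1.19 ± 0.41 for Lpl to 3.26 ± 0.92 for Car3, with adjusted p of 0.145 to 0.236. Fabp4 (3.24 ± 1.02) and Car3 lay above Ucp1 in value, Cfd (2.33 ± 0.68) and Plin4 (1.71 ± 0.60) between Ucp1 and Cidea, and Lipe (1.52 ± 0.47) and Lpl below both. All 10 member probe sets had an unadjusted p under 0.05, as did 11.6% of all tested probe sets. White and brown genes were not shown to differ in how the diet difference changed with time, because that contrast was not tested.

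Single arrays bore on these calls. Without normal-diet array 1 at 8 weeks the interaction was also called for Fabp4 (3.94), Cfd (2.82), Car3 (3.87 and 3.64) and Lipe (1.85), and without normal-diet arrays 1 and 2 together for Fabp4, Cfd and Car3, but no longer for Ucp1 (2.77, adjusted p = 0.0519). The Ucp1 call was also lost without normal-diet array 2 or salt and fat array 3 at 2 weeks, or salt and fat array 1 at 8 weeks (adjusted p up to 0.0526), whereas Cidea stayed called in all 24 such fits.

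Set by time within each diet, the differences of the set had opposite signs. On the salt and fat diet all 10 probe sets were above 0 (8 minus 2 weeks, median 0.99), and Ucp1 was called, with 36.3, 72.9 and 162.2 at 8 weeks, against 7.2, 17.2 and 48.8 at 2 weeks (1.74 ± 0.42, adjusted p = 0.016). That was 1 of 10, where 3.53% of all tested probe sets were called and 2.22% were called higher. For Fabp4, Cfd, Cidea and 1 Car3 probe set, all 6 arrays at 8 weeks lay above all 6 at 2 weeks, as held in the same direction for 1.15% of all tested probe sets. Cidea had 125.3, 143.5 and 174.3 at 8 weeks, against 65.9, 92.9 and 103.6 at 2 weeks, and its difference missed the threshold (0.72 ± 0.24, adjusted p = 0.0907), though not without normal-diet array 6 at 2 weeks (adjusted p = 0.0496). When only the 12 salt and fat arrays were fitted, 7 member probe sets were called, all higher at 8 weeks: both of Car3, Fabp4, Cfd, Lpl, Ucp1 and Cidea. That fit leaves the normal-diet arrays out of the estimate of the spread. Over all tested probe sets it called a smaller share than the 3.53% of the main fit.

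On the normal diet all 10 probe sets were below 0 (8 minus 2 weeks, median -1.10) and none was called by limma. All 10 had an unadjusted p under 0.05, as did 8.51% of all tested probe sets, of which 0.0392% were called. Lipe came nearest by rank, with 12.3, 22.3 and 93.8 at 8 weeks, against 46.4, 87.6 and 135.5 at 2 weeks (-1.45 ± 0.33, adjusted p = 0.169). It was called without normal-diet array 1 at 8 weeks (-1.77, adjusted p = 0.00473). Cidea had 36.3, 58.7 and 78.0 at 8 weeks, against 52.2, 94.9 and 236.6 at 2 weeks (-0.90 ± 0.24, adjusted p = 0.211), and was called without normal-diet array 6 at 2 weeks (-1.10, adjusted p = 0.0357). The diet and time comparisons share groups, so these values are not separate evidence of each other.

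Animals on the normal diet differed greatly from each other in white genes. At 2 weeks the highest over the lowest signal of Car3 was 3.51 with salt and fat and 12.8 on the normal diet, and at 8 weeks it was 2.02 with salt and fat and 61.5 on the normal diet. The SD of log2 Fabp4 signals at 2 weeks was 0.70 with salt and fat, where the median over all tested probe sets was 0.186, and 1.64 with normal chow, where that median was 0.164. At 8 weeks it was 0.44 with salt and fat and 2.26 with normal chow, beside medians of 0.187 and 0.186. That 2.26 rests in part on normal-diet array 6, where Fabp4 was at 1.0, below the 1st percentile of that array (1.1). Without that array the Fabp4 diet difference at 8 weeks was -0.014. The white genes were high or low on the same animals. At 2 weeks, with Car3 by its brighter probe set, normal-diet arrays 1, 2 and 3 were the 3 highest for all 6 white genes and array 6 the lowest for all 6. On the other Car3 probe set, array 5 (428.5) lay above array 1 (416.9). At 8 weeks, normal-diet array 1 was the highest for all 6.

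Ucp1 did not follow the same animals throughout. At 2 weeks, normal-diet arrays 1 and 2 had Ucp1 signals of 197.6 and 150.8, but array 3, the highest in 4 of the 6 white genes, had 29.5. At 8 weeks, normal-diet array 1 had a Fabp4 signal of 952.6 and a Ucp1 signal of 13.7, the lowest Ucp1 of that group. On that array the other brown genes went the other way, with the highest Cidea (78.0) and Adrb3 (81.9) of the group. High white signals thus occurred both with and without high Ucp1.

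**Figure D3:**
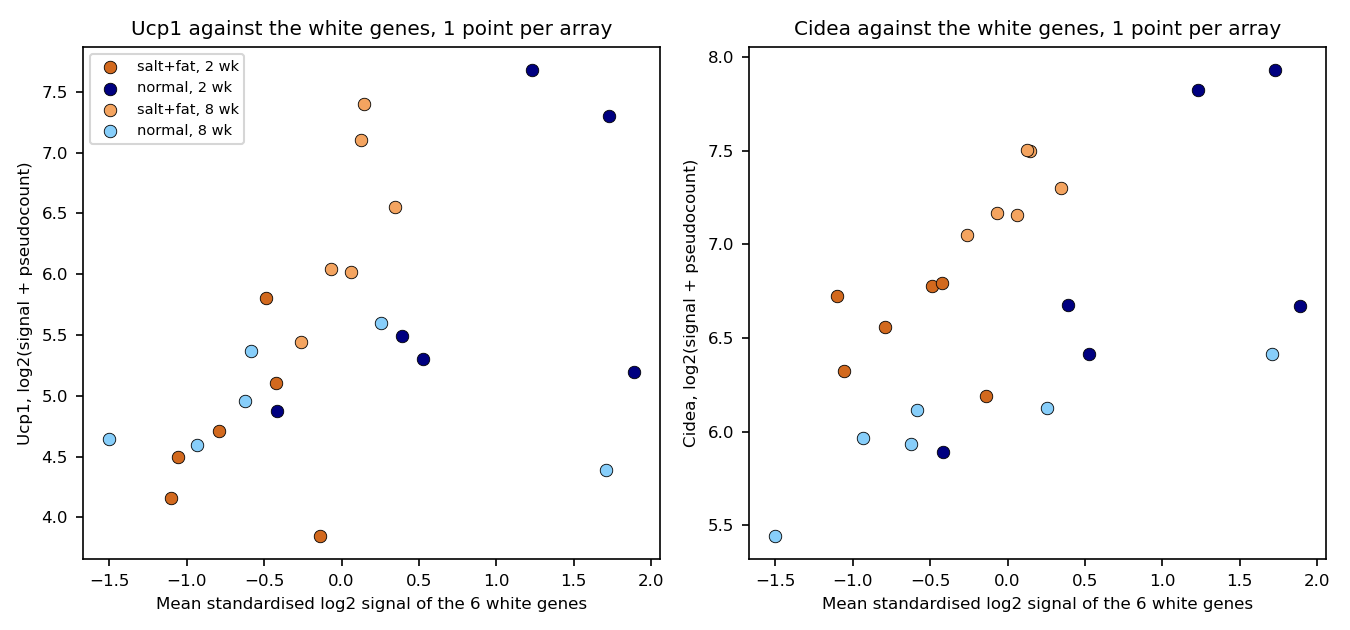
Log2(signal + 7.2) of Ucp1 (left) and Cidea (right) against the mean standardised log2 signal of the 6 white genes, 1 point per array, coloured by group. Salt and fat arrays at 8 weeks reach high Ucp1 and Cidea at middling white signal. At the far right, normal-diet array 1 at 8 weeks and array 3 at 2 weeks have low Ucp1 (13.7 and 29.5). Normal-diet array 2 at 2 weeks, also at the far right, has high Ucp1 (150.8).

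With group means taken out, log2 signals of the white genes correlated with each other across the 24 arrays at a Pearson r of 0.50 to 0.95 (median 0.77, Spearman median 0.69, 15 pairs). Leaving out the 2 arrays farthest from the median of each pair's first gene gave a median r of 0.62. White with brown genes gave 0.04 to 0.67 (median 0.45, Spearman median 0.40, 18 pairs; median r 0.43 with 2 arrays left out). Against the mean white profile, Ucp1 had r = 0.27 (rho 0.33), Cidea 0.61 (rho 0.58) and Adrb3 0.52 (rho 0.50). With 2 arrays left out, these r were 0.36 for Ucp1, 0.50 for Cidea and 0.44 for Adrb3. All pairs share the same arrays and scaling, and these values are descriptions without a test. The 2 probe sets of Car3 correlated at 0.977.

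The 3 pairs of brown genes differed among themselves. With group means taken out, Ucp1 and Cidea had r = 0.80 and rho = 0.73 over 24 arrays (two-sided permutation within groups, 100000 resamples, p = 0.0002 for r and 0.00099 for rho, or 0.0006 and 0.00297 adjusted over the 3 pairs), and r was 0.66 without the 2 arrays farthest from the median of Ucp1. Cidea and Adrb3 had r = 0.54 and rho = 0.51 by the same permutation test (p = 0.0306 and 0.0304, adjusted 0.0459 and 0.0456), with r = 0.48 without 2 arrays. Ucp1 and Adrb3 had r = 0.29 and rho = 0.18 (permutation p = 0.258 and 0.458, adjusted the same), with r = 0.03 without 2 arrays. For Ucp1 with Cidea, r within groups was 0.69 on the salt and fat diet at 2 weeks, 0.96 on the normal diet at 2 weeks, 0.99 on the salt and fat diet at 8 weeks and 0.10 on the normal diet at 8 weeks, with n = 6 in each. In that last group, Ucp1 was above the filter level on 0 arrays.

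**Figure D4:**
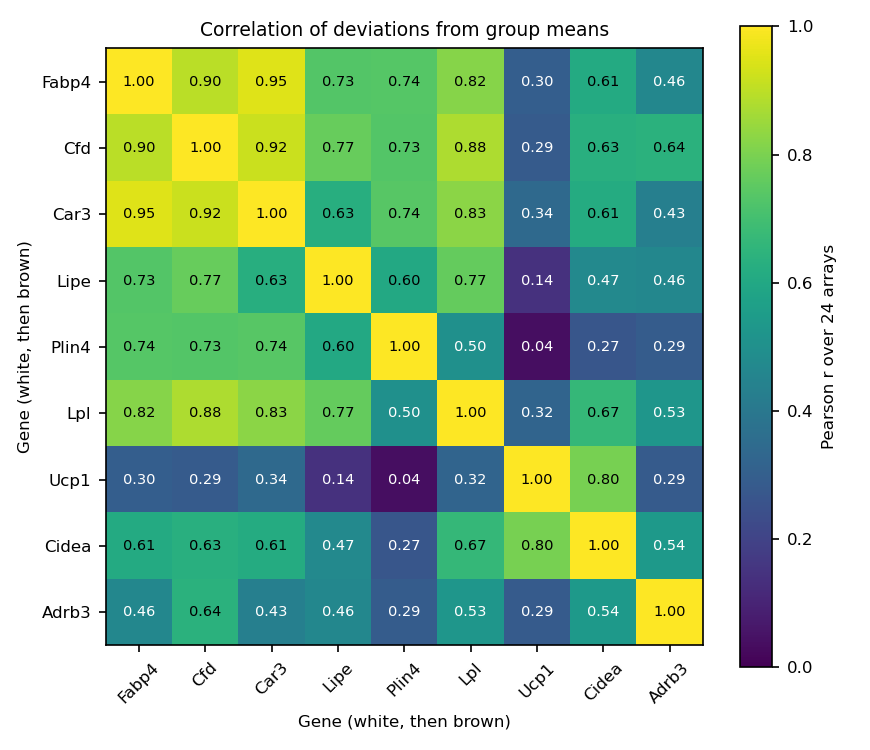
Pearson r between log2 signals of the 9 genes over 24 arrays after group means were taken out, from 0 (dark) to 1 (bright), with Car3 by its brighter probe set. The white genes form a block of 0.50 to 0.95, and Ucp1 has 0.80 with Cidea and at most 0.34 with any white gene. Without the 2 arrays farthest from the median of each pair's first gene, Ucp1 has 0.66 with Cidea. Its values with white genes are then 0.10 (Plin4) to 0.54 (Car3).

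Among 8646 other probe sets with 1 symbol, those most like the mean white profile over 24 arrays were Thrsp (r = 0.933), Aoc3 (0.908), Gsn (0.879), Cav1 (0.834) and Pnpla2 (0.832). With group means taken out, Cav1 (0.907), Scd (0.905), Thrsp (0.889), Gsn (0.882) and Aoc3 (0.864) led. Those most like Cidea were Col1a1 (0.767), Col3a1 (0.763), Agpat2 (0.744), Vim (0.700) and Angptl4 (0.694), and with group means taken out Prkar2b (0.741) and a probe set of Thrsp (0.734) led. Those most like Ucp1 were Notch1 (0.671), Il6st (0.662) and Hip1r (0.654), lower than the r of 0.82 between Ucp1 and Cidea. Those most like Adrb3 were Thrsp (0.747) and Glul (0.745).

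Other genes of adipocyte biology followed the set only in part. Of 20 further adipocyte identity genes, 15 were on the array and 9 were tested, and limma called 0 of them at 2 weeks (median -0.19) and 0 at 8 weeks (median 0.03). At unadjusted p under 0.05 the 8-week comparison had 1 and the 2-week comparison had 4, including the developmental proteolipid gene Nnat (-0.78 ± 0.29, adjusted p = 0.0897). Over all tested probe sets 23.7% had such a p at 8 weeks, and the 2-week share is not given here. In the fit without the filter Plin1 was called lower at 2 weeks (-0.84 ± 0.20, adjusted p = 0.0142). Of the lipolysis and droplet genes, 4 of 10 were lower at 2 weeks and 0 higher, beside 4.19% called lower over all tested probe sets: Mgll, monoglyceride lipase (-0.39 ± 0.08), Pde3b, which breaks down cyclic AMP (-0.61 ± 0.14), the esterase Ces1d (-0.54 ± 0.12) and Pnpla2, adipose triglyceride lipase (-0.47 ± 0.13). Mgll had signals of 1208 to 2288 over the 24 arrays.

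Of 13 tested lipogenic genes, 3 were lower at 2 weeks and 0 higher, beside the same 4.19%, and the other 10 did not pass. Scd, which desaturates fatty acids, had 29.9 ± 8.8 with salt and fat and 828 ± 835 on the normal diet (SD, n = 6 each; -3.93 ± 0.60, adjusted p = 0.000142). Thrsp, a lipogenic regulator, had 72.1 ± 34.1 with salt and fat and 417 ± 277 on the normal diet (-2.23 ± 0.48, adjusted p = 0.0038), and Acaca, acetyl-CoA carboxylase, differed by -0.58 ± 0.13. At 8 weeks 1 of 13 was lower, Scd (-2.12 ± 0.60, adjusted p = 0.0257), and 1 higher, Agpat2, an acyltransferase of triglyceride synthesis (0.75 ± 0.17, adjusted p = 0.00611). Among genes of fatty acid uptake and Lpl control, Apoe was lower and the fatty acid carrier Fabp5 higher at 2 weeks. At 8 weeks Angptl4, a secreted inhibitor of Lpl, was higher (0.84 ± 0.23, adjusted p = 0.0207) and Apoe lower, of 10 tested. Beside these counts, 8.74% of all tested probe sets were called in either direction at 2 weeks and 9.14% at 8 weeks.

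The other brown and thermogenic genes were mixed. Of 22, 15 were on the array and 9 were tested. At 8 weeks 2 were higher, Ucp2, an uncoupling protein of many tissues (0.36 ± 0.11, adjusted p = 0.0285), and Cpt1b, the muscle form of the mitochondrial fatty acid transporter, and 1 was lower, the fatty acid transporter Slc27a2 (-0.34 ± 0.07, adjusted p = 0.0013). The median of the list was -0.16 at 8 weeks. Over all tested probe sets, 9.14% were called in either direction at 8 weeks and 8.74% at 2 weeks. At 2 weeks 2 were higher, including Cpt1b (0.78 ± 0.12, adjusted p = 0.000159), and 3 lower: Slc27a2 (-0.30 ± 0.07), Bmp7 (-0.26 ± 0.07) and Acot2 (-0.54 ± 0.15). Ppargc1a, the coactivator of mitochondrial biogenesis, was tested and not called, and Dio2, the deiodinase of brown fat, stayed at 1.7 to 11.3 on every array.

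Cox8b, a cytochrome oxidase subunit of muscle and brown fat, lay below the filter and was singled out after its values were seen. It had 5.8, 19.4 and 55.1 on the salt and fat diet at 8 weeks, against 1.5, 3.5 and 5.9 on the normal diet at 8 weeks. At 2 weeks it had 1.1, 3.0 and 4.4 on the salt and fat diet, against 1.4, 3.7 and 70.5 on the normal diet, where arrays 1 and 2 had 70.5 and 41.7 and the other 4 at most 4.9. Those were the arrays of high Ucp1, and array 3, with high white genes, had 2.3. In the fit without the filter the 8-week difference was 1.42 ± 0.43 (adjusted p = 0.0501), so it was not called. Over 24 arrays Cox8b correlated with Ucp1 at 0.89 and with Cidea at 0.84, against 0.43 with the white profile, as a description.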

How the data were processed

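Kidney RNA of 24 rats was hybridised to Affymetrix rat arrays, 1 array per animal. The authors deposited linear intensity values, MAS5 signals according to the submitters' processing notes; the version, scanner and detection calls are not given in the sources used here. The mean of each array without its extreme values was 150.03 to 150.04, so arrays shared a scaling target. Gene symbols came from the platform annotation (12783 probe sets with 1 symbol, 312 with several, 2771 with none, 57 controls).

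A pseudocount of 7.2, which is 0.1 times the middle of the 24 array medians, was added before taking log2, and arrays were not normalized again. Tests covered the 10208 probe sets that exceeded the 40th percentile on at least 6 arrays. The 4 group means were estimated with limma 3.58.1 under R 4.3.3 (eBayes with trend), two-sided, with Benjamini-Hochberg adjustment over all tested probe sets, after the procedure was tested on simulated data. The 5 comparisons were diet at 2 and 8 weeks, their difference, and 8 against 2 weeks on each diet. Animals are the replicates. The members, lists and tests were chosen with earlier results of these data known. Every member was named. Each other list gave up to 4 genes of smallest p at 2 weeks and up to 2 at 8 weeks. These were taken by their probe set of highest mean. Umod, Plin1, Lep, Th, Fgg, Ppargc1a, Dio2, Cox8b, Cox7a1 and further called genes were named outside that rule, after their values were seen. Likeness is Pearson r over 24 arrays.

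Alternatives were other pseudocounts and filters, quantile normalization, centring on array medians, eBayes without trend or robust, only the groups compared, the replicate number as a block, normal-diet arrays 1 and 2 at 8 weeks left out, and each array left out in turn. Across groups, 36 pairs of arrays with the same number correlated at -0.147 to 0.162 in their deviations from group means, with 5 over 0.1, so the numbers were not taken as pairs.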

Additional observations from a re-analysis of the deposited data

Results flagged for a closer look

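Lpl on normal-diet array 1 at 8 weeks had a signal of 586.3, far above the other 5 arrays of its group. On the log2(signal + 7.2) scale its gap to the next was 0.666 of the group's range, above the critical value for 6 samples, and it was the only such case in 40 groups of 6, where chance gives about 1 in 20. On linear signals 6 of the 40 groups had such a case, and all 6 were this array: for Lpl (0.795), Fabp4 (0.835), Cfd (0.713), Lipe (0.758) and both Car3 probe sets (0.705 and 0.742). The same array was the highest of its group for all 6 white genes.

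The diet difference changed between 2 and 8 weeks for Ucp1, by 2.79, and for Cidea, by 1.62, each tested as an interaction in limma. For Ucp1 the diet difference was 1.50 at 8 weeks and -1.29 at 2 weeks, and for Cidea it was 1.28 and -0.34. The 2-week differences were not called (limma adjusted p = 0.0533 and 0.418). The Ucp1 interaction was called in 21 of 24 fits that left out 1 array, that of Cidea in all 24. The white genes Fabp4 (3.24) and Car3 (3.26) had larger interaction values that were not called.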

How the results depend on the processing

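Member calls under other settings are counts of 10 probe sets, and the reported ones were 7 (2-week diet), 2 (8-week diet), 2 (interaction), 1 (time, salt and fat) and 0 (time, normal diet). A filter at the 60th percentile gave 4, 1, 1 and 0 for all but the last of these, since fewer members were tested. Fitting only the groups compared gave 7 for time on the salt and fat diet (223 probe sets in all, against 360), and 0 probe sets for time on the normal diet, against 4. That last count was 2 after centring on array medians and 0 without the trend. Without normal-diet arrays 1 and 2 at 8 weeks, diet at 8 weeks had 542 probe sets (933 otherwise) and 1 member, the interaction 5 members, and time on the normal diet 9 probe sets and 1 member, and the uncalled Car3 differences at 8 weeks changed sign to 0.72 and 0.73. Leaving out 1 array at a time gave 598 to 986 probe sets and 5 to 8 members for diet at 2 weeks, 543 to 1120 and 1 to 2 for diet at 8 weeks, 22 to 50 and 1 to 7 for the interaction, 220 to 507 and 1 to 2 for time on the salt and fat diet, and 0 to 10 and 0 to 1 for time on the normal diet. In those fits uncalled values near 0 changed sign, with 8-week diet ranges of -0.70 to 0.43 and -0.54 to 0.47 for Car3, -0.094 to 0.28 for Lpl and -0.014 to 1.36 for Fabp4, and a range over time on the salt and fat diet of -0.092 to 0.22 for Lipe. Of single members, Plin4 at 2 weeks was also uncalled with the smaller pseudocount, quantile normalization, no filter, no trend and robust eBayes (adjusted p 0.0507 to 0.0733), Fabp4 at 2 weeks with robust eBayes (0.0594); Lipe at 2 weeks was called with only the groups compared (0.0494), and Ucp1 at 2 weeks was called with the smaller pseudocount (0.0463). Centring on array medians moved the share of higher calls for time on the salt and fat diet to 46.6%, against 63.1%, and for time on the normal diet to 50%, against 75%. The replicate number as a block gave 892, 922, 41, 354 and 5 probe sets and called Ucp1 at 2 weeks (-1.29, adjusted p = 0.0362); it changed no other member call. The cause of these moves was not tested beyond what is stated. The limit of the data is signal over background: Ucp1 and Plin4 lay near or below the filter level on most arrays.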
